A study of Homo sapiens with 18 samples.

Results

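G1 cyclins, the kinases they bind, inhibitors that hold them in check and the retinoblastoma gene were followed through RNA-seq of OVCAR3-KRAB cells. The cells were with or without a knockdown (KD) of XIST, in normoxia and in hypoxia. The set was chosen by symbol. It holds 10 of the 28277 genes in the count table: the D-type cyclin genes CCND1, CCND2 and CCND3, the E-type cyclin genes CCNE1 and CCNE2, the kinase genes CDK4 and CDK6, the inhibitor genes CDKN1B and CDKN2A, and RB1. All 10 had counts and all 10 passed the filter on low counts. CCND2 passed only through the hypoxic sgCtl libraries, and CDK6 through the hypoxic libraries of both XIST KD lines and the normoxic sgXIST9 libraries, so that passing is no evidence of expression in the other groups. CCND2 would not have been tested without the hypoxic sgCtl libraries, and its calls that rest on them are given as a description.

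OVCAR3 is a long-established line from a high-grade ovarian carcinoma. The OVCAR3-KRAB cells sequenced carried dCas9-KRAB, in which a KRAB repressor domain is joined to a Cas9 that no longer cuts DNA, delivered by lentivirus and selected with blasticidin, and a guide selected with puromycin. The sgCtl cells had a control guide to Gal4, and the sgXIST7 and sgXIST9 cells had a guide to the XIST promoter. The cells were clonal, and how many clones the libraries of a guide came from is not given in the sources used here. A difference between guides is also a difference between clones, so that guide and clone cannot be told apart. The cells of 1 guide are called a line below. Each of the 3 lines was kept in normoxia or for 24 h in 1% oxygen, with 3 biological replicates in each of the 6 groups and 18 libraries in all. The p-values below measure the spread between these replicates.

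D-type cyclins bind CDK4 or CDK6 and begin the phosphorylation of RB1 in G1, and E-type cyclins bind CDK2 and complete it. Phosphorylated RB1 releases E2F transcription factors, which switch on CCNE1, CCNE2 and the genes of DNA replication. CDKN2A codes for p16INK4a, which blocks CDK4 and CDK6, and in another reading frame for ARF. CDKN1B codes for p27KIP1, which blocks the cyclin E-CDK2 complex. Low oxygen is known to slow entry into S phase in many cell types, and high-grade serous ovarian cancers often carry extra copies of CCNE1. RNA levels do not report cyclin protein, whose turnover is fast, nor kinase activity.

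Total counts ranged from 11794375 to 24906936 per library (median 17629433). XIST was counted 4213 to 11209 times per normoxic sgCtl library and 1589 to 5014 times in hypoxia. It was counted at most 5 times in any sgXIST7 library and 357 to 1009 times in the sgXIST9 libraries, so that sgXIST9 was a partial KD. Of 12 genes known to be induced by hypoxia, 10 were higher in hypoxia in sgCtl and 11 in each KD line. Among the markers of the labelled cell type, EPCAM reached 156 to 251 CPM (counts scaled to a common library size) and KRT18 129 to 251 CPM, and PAX8 0.828 to 5.94 CPM. KRT8 differed with the line, with group means of 9.13 CPM in normoxic sgCtl beside 34.7 and 33.8 CPM in sgXIST7 and sgXIST9, and 4.41 CPM in hypoxic sgCtl beside 25.8 and 19.4 CPM. CDH1 and MUC16 were at or below 4 counts in every library, and KRT19 and WT1 at or below 14. Of the markers of other cell types, the 5 fibroblast genes summed to 359.7 to 1062 CPM, nearly all of it COL3A1. DCN was at or below 30 counts, LUM and PDGFRB at or below 8 and COL1A1 at or below 156. The group means of COL1A1 were 0.564 CPM in normoxic and 0.163 CPM in hypoxic sgCtl. They were 2.79 and 2.06 CPM in sgXIST7 and 2.25 and 5.21 CPM in sgXIST9. The endothelial and immune markers summed to at most 0.684 CPM and 0.298 CPM. The summed epithelial markers ranged from 297 to 348 CPM in hypoxic sgCtl and from 459 to 517 CPM in hypoxic sgXIST7. Their part in the results was not tested. The hypoxic library numbered 3 had the lowest total of the hypoxic libraries in each line and the lowest mean correlation with its own group. This was 0.959 in sgCtl beside 0.970 and 0.975, 0.974 in sgXIST9 beside 0.977 and 0.984 and 0.979 in sgXIST7 beside 0.981 and 0.985, where it was close to the others. Some of the results that change without these 3 libraries are also given without them.

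The levels of the 10 genes spread widely. Per kilobase of exon and averaged over the 18 libraries, CDK4 was highest at 76.3 CPM per kb, above 95.4% of the genes tested, followed by CCND1 at 39.3 CPM per kb and CDKN1B at 30.7 CPM per kb. CCNE1 (16.5), CCND3 (12.2), CCNE2 (10.0) and RB1 (7.91 CPM per kb) lay in the middle of the range, and CDKN2A was low at 2.64 CPM per kb. CCND2 and CDK6 were close to the detection limit, at 0.103 CPM per kb and 0.0796 CPM per kb. The order differed between groups. CDKN1B lay above CCND1 in hypoxic sgCtl (34.6 and 33.1 CPM per kb), sgXIST7 (52.8 and 18.8) and sgXIST9 (37.1 and 25.4 CPM per kb) and in sgCtl the 2 means differed by less than the SD of CDKN1B (6.25). In hypoxic sgXIST7 RB1 (11.9) lay above CCNE1 (5.95), CCNE2 (3.87) and CCND3 (3.35 CPM per kb). In normoxic sgCtl the order of the neighbours CCNE1 (28.9 ± 2.26), CDKN1B (20.9 ± 1.83), CCND3 (13.7 ± 0.805) and CCNE2 (13.01 ± 1.148 CPM per kb, SD, n = 3) was clear for the first pair, while CCND3 and CCNE2 differed by less than their spread.

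Gene models limit some of these levels, since nothing states that the counting used strand. TSPAN31, on the opposite strand, overlaps 57.8% of the exon bases of CDK4, and INTS8 overlaps 55.8% of those of CCNE2. TSPAN31 was counted 1 to 16 times per library. INTS8 was not past the test in any of the comparisons below, with log2 fold changes from -0.37 to 0.22. CDKN2B-AS1 overlaps 13.2% of the exon bases of CDKN2A. Its group means were 2.57 to 5.96 CPM. In hypoxia it was higher than in sgCtl by 0.94 in sgXIST7 and by 1.20 in sgXIST9 (adjusted p = 0.00291 and 0.00055 in edgeR). Its part in the CDKN2A counts was not tested.

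**Figure D1:**
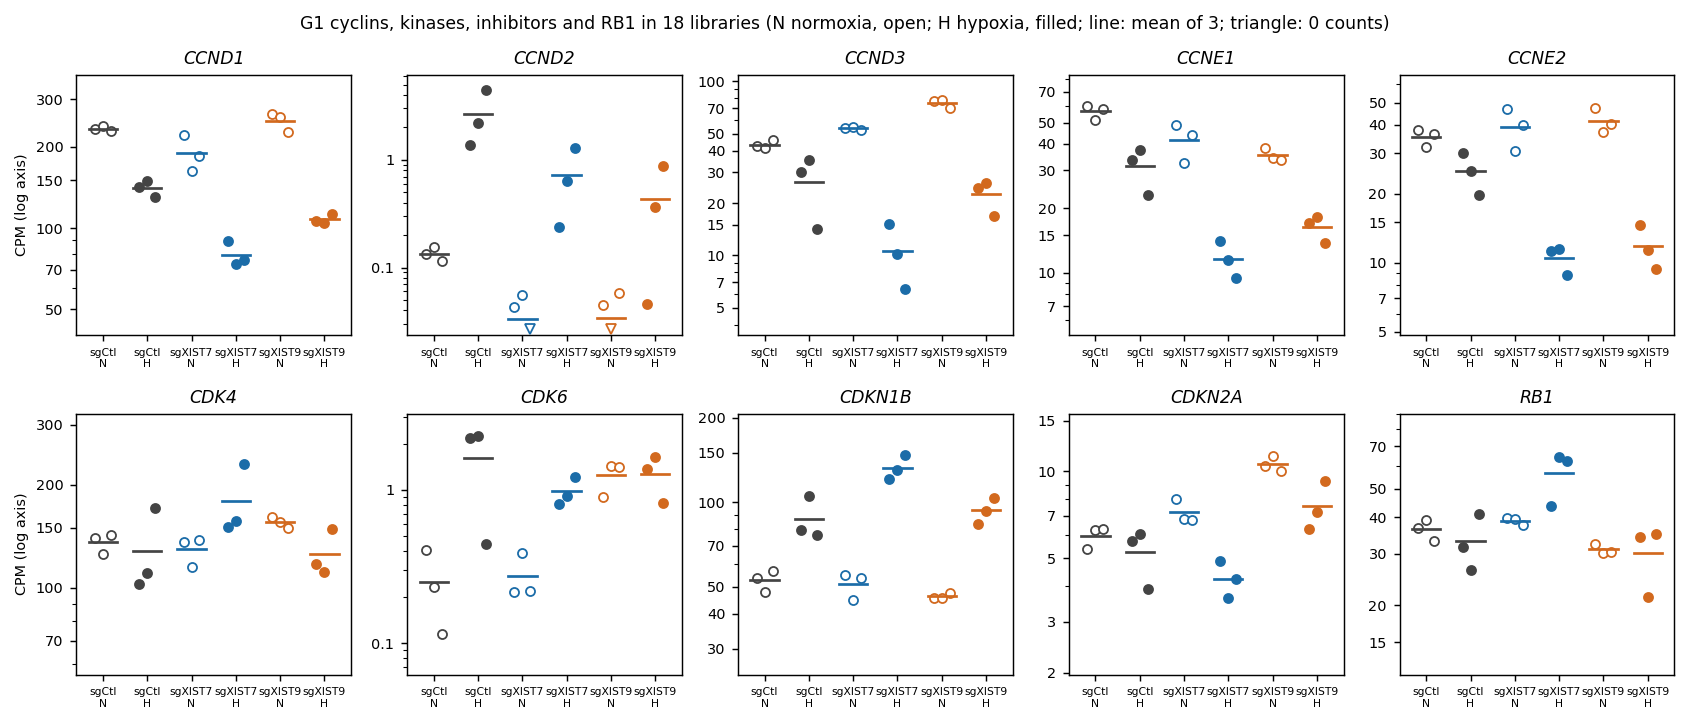
CPM of each of the 10 genes (vertical log axes, own range in each panel) in the 6 groups on the horizontal axis, with 1 point per library, open for normoxia (N) and filled for hypoxia (H), and a line at the mean of 3, triangles marking 0 counts. The hypoxic points of CCND1, CCNE1 and CCNE2 lie below the normoxic points of the same line, and those of CDKN1B lie above them, in each of the 3 lines.

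The starts of 7 of the 10 genes were listed in RefSeq (GRCh38.p14), and the bases before the start are shown for 3 of them, a gene lower in hypoxia (CCNE1), a gene higher in hypoxia (CDKN1B) and a gene past the test in neither direction (CDK4). Capitals mark 4 kinds of short motif, on either strand. One is the GC box, here the letters GGGCGG, and one the CCAAT box. The E-box was searched as the letters CACGTG. The core of a hypoxia response element was searched as ACGTG and, for the other first letter in use, as GCGTG. An E-box contains ACGTG on both strands. The stretches end where the first exon of the deposited annotation begins.
CCNE1, chr19:29811741-29811990, plus strand: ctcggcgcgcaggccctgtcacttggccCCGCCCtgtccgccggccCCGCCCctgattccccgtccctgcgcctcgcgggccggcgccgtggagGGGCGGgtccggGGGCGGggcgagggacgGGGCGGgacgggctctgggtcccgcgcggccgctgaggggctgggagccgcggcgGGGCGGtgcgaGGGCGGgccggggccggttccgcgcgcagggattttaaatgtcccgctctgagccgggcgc
CDKN1B, chr12:12717118-12717269, plus strand: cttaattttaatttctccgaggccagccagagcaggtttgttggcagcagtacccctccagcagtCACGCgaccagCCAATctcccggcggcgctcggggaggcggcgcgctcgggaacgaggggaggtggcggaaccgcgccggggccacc
CDK4, chr12:57752311-57752560, minus strand: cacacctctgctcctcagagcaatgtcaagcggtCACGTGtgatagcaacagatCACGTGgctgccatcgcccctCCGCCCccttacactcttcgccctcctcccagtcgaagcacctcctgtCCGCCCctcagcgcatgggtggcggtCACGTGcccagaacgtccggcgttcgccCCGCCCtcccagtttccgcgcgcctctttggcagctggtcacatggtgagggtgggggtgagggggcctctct
The CCNE1 stretch held 7 GC boxes and none of the other marked letters, with 81.2% G and C. The CDK4 stretch held 3 E-boxes and 3 GC boxes. CDKN1B had 1 hypoxia core and 1 CCAAT box in the printed stretch, with a second CCAAT box and a GC box in the bases that follow it up to the RefSeq start. In the 250 bases before all 35116 starts in the table, 42.6% held a GC box, 43.2% a hypoxia core, 32% a CCAAT box and 6.34% an E-box. The E2F letters TTTCCCGC or TTTGGCGC stood in 1.93% of the starts and in 0 of the 11 starts of the 7 genes. The RB1 stretch searched, chr13:48476200-48476449, lies within the gene (48303747 to 48481890, plus strand). The bases before the first exon of RB1 were therefore not searched. These matches describe the letters only.

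In hypoxia CCND1 and CCNE1 were down-regulated and CDKN1B was up-regulated, in each of the 3 lines. In bulk RNA, fewer cells in a stage of the cycle and less RNA per cell cannot be told apart. In sgCtl 3 of the 10 genes rose (CCND2, CDK6 and CDKN1B) and 2 fell (CCND1 and CCNE1), at an adjusted p under 0.01 in edgeR's quasi-likelihood test. Of all 14938 genes tested, 18.8% rose and 18.8% fell in the same comparison. In sgXIST7 3 rose and 5 fell, where 23.5% and 23.2% of all genes did. In sgXIST9 1 rose and 4 fell, where 23.1% and 19% did. With the study's further limit of a log2 fold change above 1 in either direction, 2, 7 and 5 of the 10 genes were called in sgCtl, sgXIST7 and sgXIST9, beside 19.7%, 27.3% and 23.3% of all genes. The 10 genes had a median log2 fold change of -0.16 in sgCtl, -0.15 in sgXIST7 and -0.39 in sgXIST9, and that of all genes 0.02, 0.01 and 0.09. CCND2 is counted in sgCtl although it was tested only because of these libraries, and 4 genes remain without it. Without the 3 hypoxic libraries numbered 3, the counts were 6, 8 and 7, and the share of all genes past the test was 47.0%, 51.2% and 48.6%, up from 37.6%, 46.7% and 42.1%. The count in sgXIST7 was 5 without its normoxic replicate 1, and the share of all genes in that fit was not computed.

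CCND1, the main D-type cyclin gene of these cells, stood at 232, 239 and 229 CPM in normoxic sgCtl and at 141, 149 and 130 CPM in hypoxic sgCtl. In sgXIST7 it went from 221, 163 and 185 CPM in normoxia to 89.4, 73.7 and 76.0 CPM in hypoxia. In sgXIST9 it went from 264, 257 and 226 CPM to 106, 104 and 113 CPM. No hypoxic library overlapped a normoxic library of the same line. CCND1 fell by 0.73 ± 0.11 on the log2 scale (SE) in sgCtl (adjusted p = 4.98e-05), by 1.25 ± 0.11 in sgXIST7 (adjusted p = 1.05e-07) and by 1.21 ± 0.11 in sgXIST9 (adjusted p = 1.93e-07), that is 1.66-, 2.38- and 2.31-fold. The response differed from that of sgCtl by -0.51 ± 0.16 in sgXIST7 and by -0.48 ± 0.16 in sgXIST9, neither past the test (adjusted p = 0.0527 and 0.0907). The call in each line held under the alternatives run, from a log2 fold change of -1.35 to -0.68.

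CCND3, which is the other D-type cyclin with a sizeable level here, was less uniform. It stood at 42.4, 41.3 and 46.2 CPM in normoxic sgCtl and at 30.003, 35.4 and 14.2 CPM in hypoxia. In sgXIST7 it went from 54.2, 55.0 and 52.8 CPM to 15.1, 10.2 and 6.39 CPM. In sgXIST9 it went from 77.0, 78.3 and 70.6 CPM to 24.5, 26.1 and 16.9 CPM. The groups did not overlap in any line, and replicate 3 was the lowest of the hypoxic libraries in each. CCND3 fell by 2.33 ± 0.28 in sgXIST7 (5.02-fold, adjusted p = 2.57e-06) and by 1.74 ± 0.27 in sgXIST9 (3.34-fold, adjusted p = 4.65e-05), the steepest change of a well-expressed member in sgXIST7. Its log2 fold change in sgCtl was -0.69 ± 0.27 and was not past the test (adjusted p = 0.0404). The difference in response between sgXIST7 and sgCtl was -1.63 ± 0.39 (adjusted p = 0.0166), and between sgXIST9 and sgCtl -1.04 ± 0.38 (adjusted p = 0.117). Without the hypoxic libraries numbered 3 both differences passed the test, at -1.68 and -1.17 (adjusted p = 1.35e-05 and 0.000356).

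CCND2, the third D-type cyclin gene, was close to absent in normoxia, with at most 2 counts in any of the 9 normoxic libraries. In hypoxia it had 22, 44 and 50 counts in sgCtl, 5, 14 and 15 in sgXIST7 and 1, 8 and 14 in sgXIST9. Against 3 counts in each normoxic library, its level in hypoxia was at least 13.2-fold higher in sgCtl, 5.08-fold in sgXIST7 and 2.76-fold in sgXIST9. In sgXIST9 the groups overlapped, with 1 hypoxic library at 1 count. Without hypoxic replicate 3 the bounds were 8.82-fold in sgCtl, 3.07-fold in sgXIST7 and 1.31-fold in sgXIST9. The adjusted p was 0.000335 in sgCtl, where it is no independent support since these libraries let the gene into the test, 0.00269 in sgXIST7 and 0.0189 in sgXIST9. In sgXIST7 the call was lost without the normoxic replicate 1 or 3 or the hypoxic replicate 3 (adjusted p = 0.0102, 0.0148 and 0.0127). Even in hypoxic sgCtl, its highest group, CCND2 reached only 2.66 ± 1.58 CPM (SD, n = 3).

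CCNE1, whose product drives CDK2 into S phase, was at 60.04, 51.6 and 58.0 CPM in normoxic sgCtl and at 33.5, 37.6 and 22.9 CPM in hypoxia. In sgXIST7 it went from 48.7, 32.5 and 44.1 CPM to 14.0, 11.4 and 9.41 CPM. In sgXIST9 it went from 38.1, 34.3 and 33.8 CPM to 17.001, 18.3 and 13.8 CPM. The hypoxic libraries were lower without overlap in each line. CCNE1 fell by 0.85 ± 0.18 in sgCtl (1.80-fold, adjusted p = 0.00111), by 1.84 ± 0.19 in sgXIST7 (3.57-fold, adjusted p = 4.74e-07) and by 1.11 ± 0.19 in sgXIST9 (2.16-fold, adjusted p = 9.5e-05). The difference in response from sgCtl was -0.99 ± 0.26 in sgXIST7 (adjusted p = 0.0294) and -0.27 ± 0.26 in sgXIST9 (adjusted p = 0.6). The first passed the test without the hypoxic libraries numbered 3, at -1.04 (adjusted p = 0.00155).

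CCNE2, the second E-type cyclin gene, was the member whose response to hypoxia differed past the test between a KD line and sgCtl. In normoxia it stood at 37.9, 31.9 and 36.6 CPM in sgCtl, 47.0, 30.8 and 40.04 CPM in sgXIST7 and 47.4, 37.3 and 40.5 CPM in sgXIST9. In hypoxia it stood at 30.2, 25.2 and 19.8 CPM in sgCtl, 11.3, 11.5 and 8.89 CPM in sgXIST7 and 14.6, 11.4 and 9.40 CPM in sgXIST9. The normoxic groups overlapped, and in hypoxia every KD library lay below every sgCtl library. CCNE2 fell by 1.89 ± 0.19 in sgXIST7 (3.71-fold, adjusted p = 3.84e-07) and by 1.82 ± 0.19 in sgXIST9 (3.53-fold, adjusted p = 6.92e-07). Its log2 fold change in sgCtl was -0.50 ± 0.19 (adjusted p = 0.0346). The response was stronger than that of sgCtl by -1.39 ± 0.27 in sgXIST7 (adjusted p = 0.00594) and by -1.32 ± 0.27 in sgXIST9 (adjusted p = 0.0097). It was 1 of 10 members past this test for each line, beside 2.17% and 1.26% of all genes. Both contrasts share the sgCtl libraries. These 2 calls were narrow: the first was lost in 9 of 12 fits that left out a library, with an adjusted p of up to 0.0202, and the second in 10 of 12, with up to 0.0333. The exceptions were the hypoxic sgCtl replicate 3 in both contrasts, the normoxic replicate 2 and hypoxic replicate 1 of sgXIST7 in the first, and the hypoxic replicate 1 of sgXIST9 in the second. Without all 3 hypoxic libraries numbered 3 the differences were -1.42 and -1.32 (adjusted p = 0.000356 and 0.00095). In that fit 16.2% and 9.92% of all genes passed.

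CDK4, the main partner of the D-type cyclins here, was not past the test in any comparison of the 18 libraries. It ranged from 126 to 143 CPM in normoxic sgCtl and stood at 103, 111 and 171 CPM in hypoxic sgCtl, where replicate 3 lay apart. In sgXIST7 the 3 hypoxic libraries (150, 157 and 230 CPM) lay above the 3 normoxic ones (136, 115 and 138 CPM). In sgXIST9 the hypoxic libraries (117, 112 and 148 CPM) lay below the normoxic ones (161, 156 and 150 CPM). The log2 fold changes in hypoxia were -0.09 ± 0.18 in sgCtl, 0.46 ± 0.18 in sgXIST7 (adjusted p = 0.0383) and -0.31 ± 0.18 in sgXIST9 (adjusted p = 0.166). Without the hypoxic libraries numbered 3, CDK4 was lower in hypoxia past the test in sgCtl, at -0.35 (adjusted p = 0.00574), and in sgXIST9, at -0.44 (adjusted p = 0.00101), and its response differed between sgXIST7 and sgCtl by 0.60 (adjusted p = 0.0037).

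CDK6, which codes for the other cyclin D kinase, had 2 to 45 counts per library. It had 6, 3 and 2 counts in normoxic sgCtl and 35, 45 and 5 in hypoxia. In sgXIST7 it had 5, 7 and 5 counts in normoxia and 17, 20 and 14 in hypoxia, and in sgXIST9 20, 27 and 24 in normoxia and 30, 36 and 13 in hypoxia. CDK6 rose by 2.74 ± 0.56 in sgCtl (adjusted p = 0.000624) and by 1.81 ± 0.54 in sgXIST7 (adjusted p = 0.00838), from levels of 0.250 and 0.274 CPM. In sgXIST9 its log2 fold change was 0.06 ± 0.44 (adjusted p = 0.922), from 1.24 CPM. The response differed from that of sgCtl by -0.93 ± 0.81 in sgXIST7 (adjusted p = 0.488) and by -2.68 ± 0.72 in sgXIST9 (adjusted p = 0.0401), neither past the test. The call in sgXIST7 was lost when any of its 6 libraries was left out (adjusted p from 0.0103 to 0.0360). CDK4 made up a mean of 99.77% of the summed CDK4 and CDK6 level per kilobase in hypoxic sgCtl, and more in the other groups.

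CDKN1B, which codes for the inhibitor p27KIP1, rose in hypoxia in each of the 3 lines. It was at 53.7, 47.6 and 56.7 CPM in normoxic sgCtl and at 79.9, 105 and 76.4 CPM in hypoxia. In sgXIST7 it went from 55.0, 44.7 and 53.6 CPM to 121, 130 and 148 CPM. In sgXIST9 it went from 45.4, 45.7 and 47.6 CPM to 83.8, 92.9 and 104 CPM. The groups did not overlap in any line. CDKN1B rose by 0.73 ± 0.13 in sgCtl (1.66-fold, adjusted p = 0.00022), by 1.38 ± 0.13 in sgXIST7 (2.60-fold, adjusted p = 1.71e-07) and by 1.02 ± 0.13 in sgXIST9 (2.02-fold, adjusted p = 6.33e-06). The response differed from that of sgCtl by 0.65 ± 0.19 in sgXIST7 (adjusted p = 0.038) and by 0.29 ± 0.19 in sgXIST9 (adjusted p = 0.395), neither past the test.

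CDKN2A, which codes for p16INK4a and ARF, was low throughout, at 3.62 to 11.3 CPM. In sgXIST7 it fell from 8.04, 6.83 and 6.80 CPM to 4.87, 3.62 and 4.23 CPM in hypoxia, by 0.77 ± 0.20 on the log2 scale (adjusted p = 0.00293). This call was lost without its normoxic replicate 1 or hypoxic replicate 2 (adjusted p = 0.0156 and 0.0217). The log2 fold changes in sgCtl and sgXIST9 were -0.18 ± 0.20 (adjusted p = 0.467) and -0.48 ± 0.19 (adjusted p = 0.0396). RB1, the substrate of these kinases, was not past the test for hypoxia in any line, with log2 fold changes of -0.14 ± 0.19 in sgCtl, 0.54 ± 0.18 in sgXIST7 (adjusted p = 0.0185) and -0.04 ± 0.19 in sgXIST9. Its hypoxic libraries were at 31.7, 26.4 and 41.1 CPM in sgCtl, 43.6, 64.4 and 62.2 CPM in sgXIST7 and 34.1, 21.4 and 35.0 CPM in sgXIST9.

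**Figure D2:**
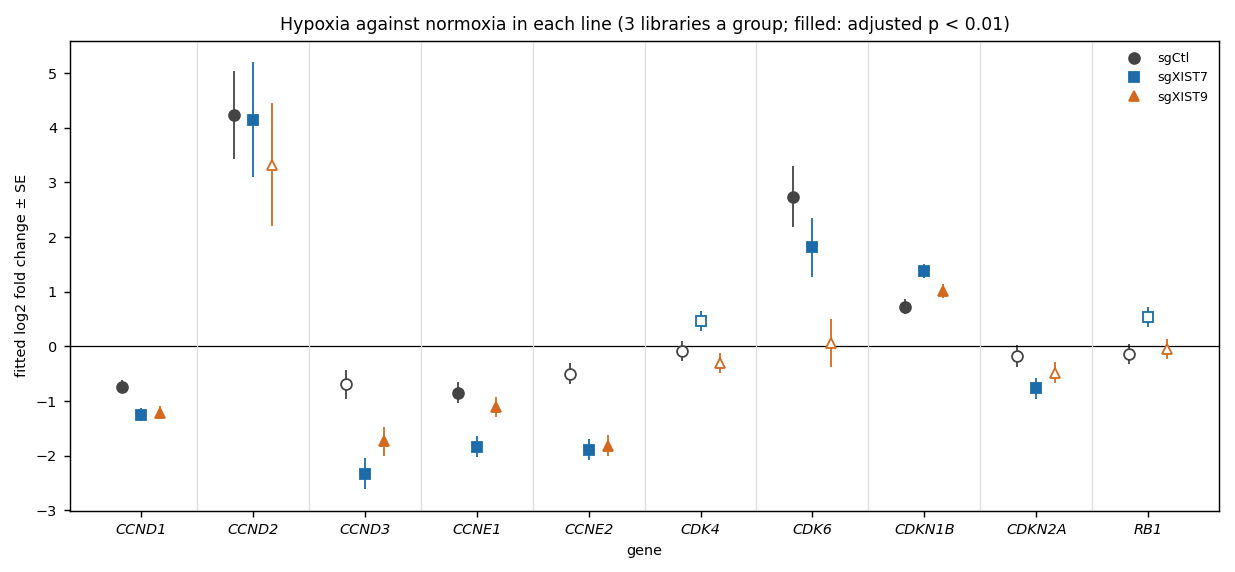
Fitted log2 fold change (± SE) of hypoxia against normoxia for the 10 genes in sgCtl, sgXIST7 and sgXIST9, 3 libraries per group, with filled symbols for an adjusted p under 0.01. CCND1 and CCNE1 are lower and CDKN1B is higher in the 3 lines with filled symbols, and CCNE2 lies at -1.89 and -1.82 in the KD lines and at -0.50 in sgCtl.

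The summed level of the 5 cyclin genes per kilobase of exon was 108 to 113 CPM per kb in normoxic sgCtl and 54.9 to 75.2 in hypoxia. In sgXIST7 it was 83.7 to 111 in normoxia and 28.2 to 37.2 in hypoxia, and in sgXIST9 108 to 124 and 42.6 to 46.8 CPM per kb. The hypoxic libraries lay below the normoxic ones without overlap in each line, and the 2 hypoxic KD groups lay below the hypoxic sgCtl group. CDKN1B was 0.188 ± 0.0127 of this sum in normoxic sgCtl (SD, n = 3), 0.208 ± 0.0112 in sgXIST7 and 0.159 ± 0.0149 in sgXIST9. In hypoxia the ratio was 0.517 ± 0.0628 in sgCtl, 1.68 ± 0.393 in sgXIST7 and 0.824 ± 0.131 in sgXIST9. Only in hypoxic sgXIST7 did all 3 libraries hold more CDKN1B RNA per kilobase than RNA of the 5 cyclins together, with ratios of 1.29 to 2.08. The ratio combines genes tested above and was not tested itself.

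The makeup of each cyclin family is given without a test. CCND1 made up 71.1% to 84.8% of the D-type cyclin RNA per kilobase in the group means and CCND3 most of the rest. The share of CCND3 was 19.9% ± 1.23 in normoxic sgCtl, 27.9% ± 3.24 in sgXIST7 and 28.9% ± 0.719 in sgXIST9, and in hypoxia 19.5% ± 6.14, 14.7% ± 4.28 and 21.8% ± 4.55 (SD, n = 3). CCND2 never reached 2% in any library. Among the E-type cyclins, CCNE1 held 69.0% ± 0.233 in normoxic sgCtl and 63.4% ± 3.68 in hypoxia, 59.7% ± 0.774 and 60.4% ± 2.75 in sgXIST7, and 54.3% ± 1.72 and 66.1% ± 3.72 in sgXIST9.

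**Figure D3:**
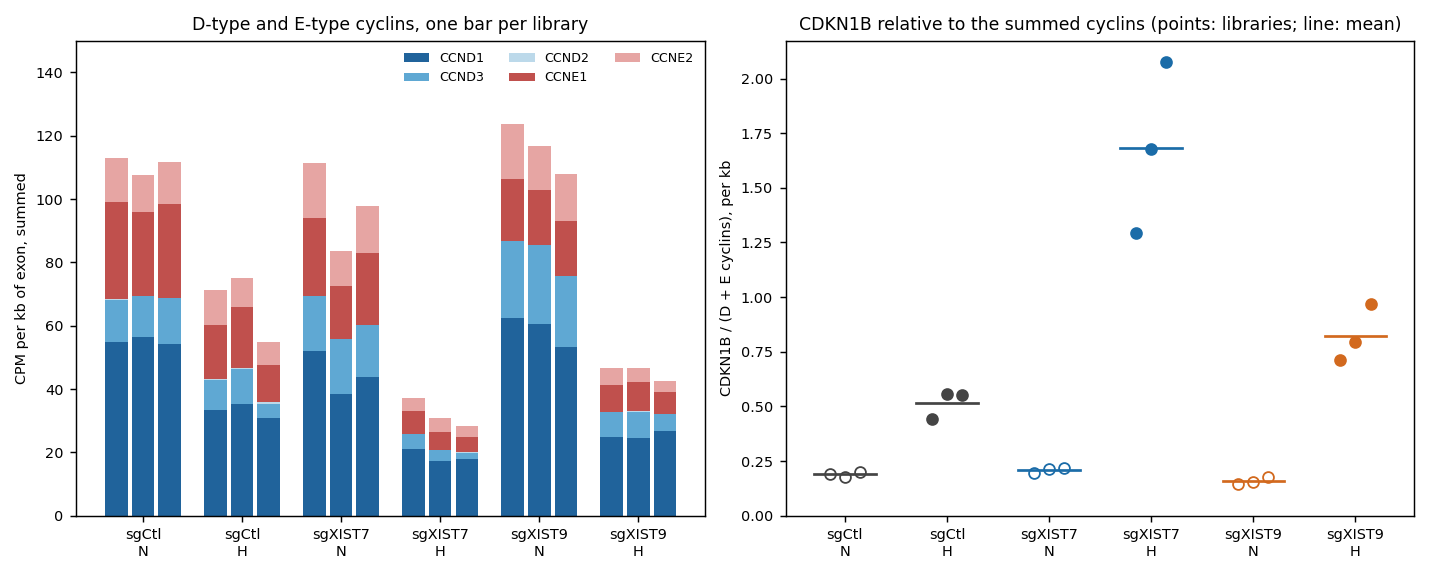
Left, stacked level of the 5 cyclin genes (CPM per kb of exon) with 1 bar per library in the 6 groups (N normoxia, H hypoxia). Right, the ratio of CDKN1B to the sum of the 5 cyclins, per kilobase, with 1 point per library and a line at the mean, which is 0.188, 0.208 and 0.159 in normoxia and 0.517, 1.68 and 0.824 in hypoxia for sgCtl, sgXIST7 and sgXIST9.

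The XIST KD lines were compared with sgCtl in normoxia. In sgXIST7 0 of the 10 genes passed the edgeR test and 0 passed in DESeq2, beside 13.5% and 14.7% of all genes. With 10 genes, a count of 0 is not set apart from these shares. At an unadjusted p under 0.05 there were 2, CCND1 and CCNE1, and the share of all genes at that limit was not computed. In sgXIST9 2 passed, CDK6 and CDKN2A, both higher, beside 13.1% of all genes. This share is near the background. In a fit of only these 2 groups 4 passed, beside 32.8% of all genes. CDK6 was 2.30 ± 0.57 higher on the log2 scale (adjusted p = 0.00689), from 2 to 6 counts per library in sgCtl to 20 to 27 in sgXIST9. CDKN2A was at 10.4, 11.3 and 10.0 CPM in sgXIST9 and at 5.37, 6.27 and 6.31 CPM in sgCtl, a log2 difference of 0.82 ± 0.19 (adjusted p = 0.005). The groups did not overlap for either gene. The same held for most of the other genes, so it does not set these 2 apart, and the share over all genes was not computed. The CDKN2A call was lost when any of the 6 libraries was left out (adjusted p from 0.0132 to 0.0306), and that of CDK6 without replicate 2 or 3 of either group (adjusted p from 0.0229 to 0.0460). CCNE1 was -0.68 ± 0.18 against sgCtl in sgXIST9 (adjusted p = 0.013) and CCND3 0.80 ± 0.27 (adjusted p = 0.0402). Between the KD lines in normoxia 0 of the 10 genes passed the edgeR test, beside 4.97% of all genes. At an unadjusted p under 0.05 there were 3, again without a computed share of all genes. DESeq2 called 2, beside 6.80% of all genes.

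The same lines were compared with sgCtl in hypoxia. In sgXIST7 2 of the 10 genes were higher (CDKN1B and RB1) and 4 lower (CCND1, CCND3, CCNE1 and CCNE2), beside 13.9% and 13.7% of all genes. In sgXIST9 3 were lower (CCND2, CCNE1 and CCNE2) and none higher in edgeR or DESeq2, beside 8.24% of all genes lower and 9.65% higher in edgeR. CDKN2A was higher only at an unadjusted p of 0.0163. The comparisons of both lines share the sgCtl libraries. The median log2 difference of the 10 genes was -0.81 in sgXIST7 and -0.31 in sgXIST9, against -0.02 and -0.01 for all genes. These counts rest on a spread shared by the 6 groups: in fits of only the 2 groups compared, 3 genes passed in sgXIST7 (CCND1, CCNE1 and CCNE2) and none in sgXIST9, where CCNE1 and CCNE2 had an adjusted p of 0.0318 and 0.022. All genes passed at 9.30% and 4.95% in these fits, beside 27.6% and 17.9% in the fit of 6 groups. Without the hypoxic libraries numbered 3, the counts were 9 and 4, and the shares of all genes 37.5% and 26.0%. The count of 3 in sgXIST9 holds CCND2, and 2 genes remain without it.

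Both E-type cyclin genes were lower in both hypoxic KD lines. CCNE1 was lower than in sgCtl by -1.43 ± 0.19 on the log2 scale in sgXIST7 (adjusted p = 2.29e-05) and by -0.94 ± 0.19 in sgXIST9 (adjusted p = 0.0011). CCNE2 was lower by -1.24 ± 0.19 (adjusted p = 9.61e-05) and -1.09 ± 0.19 (adjusted p = 0.000383). Among the D-type cyclins, CCND1 was lower in sgXIST7 by -0.82 ± 0.11 (adjusted p = 3.29e-05), and its difference in sgXIST9 was -0.38 ± 0.11 (adjusted p = 0.0176). CCND3 was lower in sgXIST7 by -1.32 ± 0.28 (adjusted p = 0.00142), with 1 overlap between the groups because hypoxic sgCtl replicate 3 (14.2 CPM) lay below the highest sgXIST7 library (15.1 CPM). This call was lost without the hypoxic sgCtl replicate 2 (adjusted p = 0.0115). As a description, since hypoxic sgCtl let it into the test, CCND2 was lower in sgXIST9 by -2.67 ± 0.66 (adjusted p = 0.00532), a call lost without replicate 2 or 3 of sgCtl or replicate 1 or 2 of sgXIST9 (adjusted p from 0.0101 to 0.0252).

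The inhibitor CDKN1B and RB1 were higher in hypoxic sgXIST7 than in hypoxic sgCtl. CDKN1B differed by 0.61 ± 0.13 (adjusted p = 0.00145), a call lost without sgCtl replicate 1 (adjusted p = 0.0109), and by 0.10 ± 0.13 in sgXIST9 (adjusted p = 0.6). RB1 differed by 0.78 ± 0.19 (adjusted p = 0.00315) in sgXIST7, a call lost without replicate 1 or 2 of sgCtl or replicate 2 or 3 of sgXIST7 (adjusted p from 0.0152 to 0.0222). Its difference in sgXIST9 was -0.13 ± 0.19 (adjusted p = 0.636). Between the hypoxic KD lines 2 of the 10 genes passed, beside 8.43% of all genes: RB1 was higher in sgXIST7 by 0.91 ± 0.19 (adjusted p = 0.0028) and CDKN2A lower by -0.84 ± 0.20 (adjusted p = 0.0074). Each of these was lost without replicate 2 or 3 of sgXIST7 or replicate 2 of sgXIST9, and CDKN2A also without replicate 3 of sgXIST9 (adjusted p from 0.0147 to 0.0488). The CDKN2A call was also lost without the hypoxic libraries numbered 3 (adjusted p = 0.0163).

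**Figure D4:**
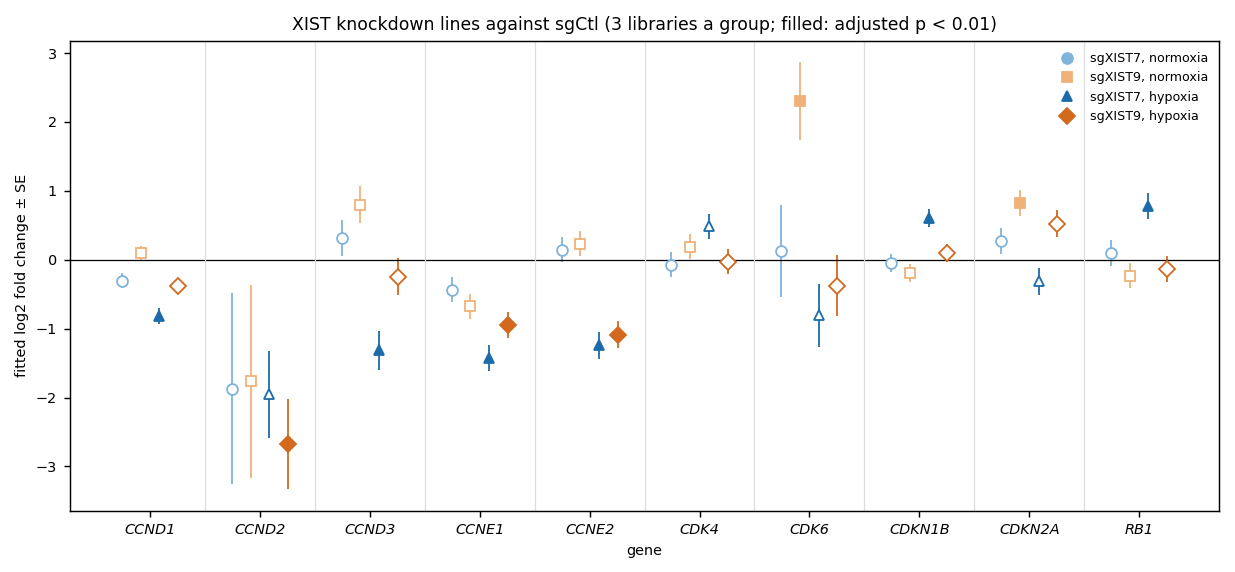
Fitted log2 difference (± SE) of sgXIST7 and sgXIST9 from sgCtl for the 10 genes, in normoxia (light symbols) and hypoxia (dark symbols), 3 libraries per group, with filled symbols for an adjusted p under 0.01. In hypoxia CCNE1 (-1.43 and -0.94) and CCNE2 (-1.24 and -1.09) are below 0 with filled symbols in both lines, and in normoxia only CDK6 and CDKN2A of sgXIST9 have filled symbols.

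A list of E2F-responsive genes, chosen with earlier results of these data known, was read in the same comparisons. Of 20 E2F-responsive genes of DNA replication and S phase, all tested, 17 fell in hypoxia in sgCtl, 18 in sgXIST7 and 19 in sgXIST9, where 18.8%, 23.2% and 19% of all genes fell. The medians were -1.26, -1.94 and -1.71 on the log2 scale, and 0.02, 0.01 and 0.09 over all genes. RRM2, a subunit of ribonucleotide reductase, fell by 2.19 in sgCtl. MYBL2, a transcription factor of S and G2, was at -3.15 in sgXIST7 and -3.02 in sgXIST9, and the replication clamp gene PCNA had log2 fold changes of -1.59, -2.36 and -2.15 in the 3 lines. TK1, the thymidine kinase of S phase, was the gene that rose in sgCtl, by 0.53, and it fell by 0.54 in sgXIST9. Against sgCtl in hypoxia, 16 of the 20 were lower in sgXIST7 and 10 in sgXIST9, beside 13.7% and 8.24% of all genes, with medians of -0.88 and -0.63. In normoxia 1 of them was lower in sgXIST7, EZH2 at -1.57, and the median in sgXIST9 was -0.08. EZH2 codes for the methyltransferase of Polycomb complex 2.

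Of 27 other regulators of the G1/S step, 25 were tested. In hypoxia 3 rose and 12 fell in sgCtl, 2 and 14 in sgXIST7, and 3 and 16 in sgXIST9, against the same shares of all genes, with medians of -0.45, -0.80 and -0.87. E2F1, which codes for the activator that RB1 holds, fell in the 3 lines (-1.10, -2.50 and -2.02), as did CDK2 (-0.87, -1.78 and -1.54) and the S phase cyclin gene CCNA2 (-1.69, -2.50 and -2.88). CDKN1A, which codes for the inhibitor p21CIP1, rose by 2.54, 2.87 and 1.997, from group means of 1.93 to 5.75 CPM in normoxia, and was lower in hypoxic sgXIST9 than in hypoxic sgCtl at -1.82. The inhibitors of CDK4 and CDK6 differed among themselves. CDKN2B (p15INK4b) rose by 1.98 in sgCtl and was at -0.40 in sgXIST7 (adjusted p = 0.281), while CDKN2C (p18INK4c) fell by 0.81 in sgCtl and by 0.87 in sgXIST7 and rose by 0.56 in sgXIST9. In hypoxic sgXIST9 CDKN2C was 2.35 higher than in hypoxic sgCtl, at 43.7 to 59.7 CPM against 8.63 to 10.6 CPM. In normoxia CUL1, the scaffold of the SCF ubiquitin ligase, was lower in sgXIST7 at -1.06.

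**Figure D5:**
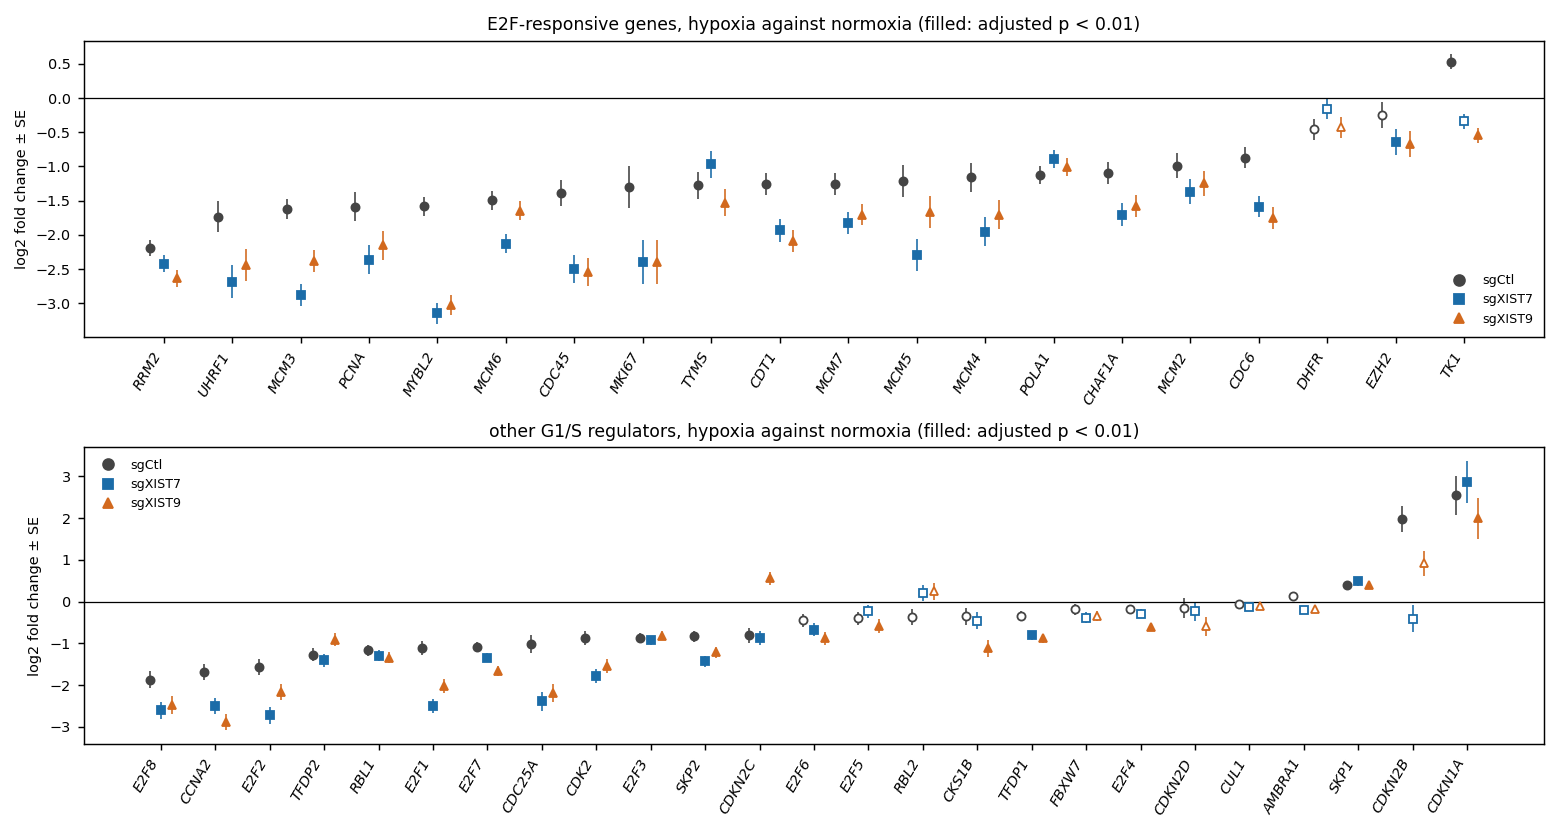
Fitted log2 fold change (± SE) of hypoxia against normoxia for the 20 E2F-responsive genes (top) and the 25 other G1/S regulators tested (bottom), ordered by the value in sgCtl, in the 3 lines, with filled symbols for an adjusted p under 0.01. In the top panel 17, 18 and 19 genes are lower with filled symbols, and in the bottom panel CDKN1A lies at 1.997 to 2.87.

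Neighbouring genes were read for each member past the test. CDKN2A on chromosome 9 (positions 21967752 to 21995324 of hg38, minus strand) had 9 tested neighbours within 1 Mb. In normoxia 4 of them were higher in each KD line than in sgCtl: MTAP, MIR31HG, DMRTA1 and LINC01239. Of all genes 13.5% and 13.1% passed in either direction in sgXIST7 and sgXIST9. In hypoxia 7 of the 9 were higher in sgXIST7 and 6 in sgXIST9, beside 13.9% and 9.65% of all genes. MTAP, which codes for an enzyme of methionine salvage, was at 105 to 122.6 CPM in normoxic sgCtl, 345 to 357 CPM in sgXIST7 and 332 to 340 CPM in sgXIST9 (log2 differences of 1.64 and 1.57, adjusted p = 7.5e-08 and 9.79e-08). LINC01239, a noncoding RNA, had 1 to 3 counts per normoxic sgCtl library and in sgXIST7 exceeded this limit at least 33.9-fold and in sgXIST9 at least 42.4-fold. CDKN2B, the gene next to CDKN2A, was not among the 4 in normoxia (log2 differences of 0.19 and 0.21). In hypoxia CDKN2B was at -2.19 against sgCtl in sgXIST7 (adjusted p = 3.76e-05) and at -0.86 in sgXIST9 (adjusted p = 0.0344). CDKN2A itself differed from sgCtl in normoxia by 0.27 ± 0.19 in sgXIST7 and by 0.82 ± 0.19 in sgXIST9. Copy number was not measured.

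Neighbours of other members also passed the study's limits in the direction of the member. APOLD1 and GSG1 rose with CDKN1B in hypoxia in the 3 lines, APOLD1 by 3.23 in sgCtl, 3.91 in sgXIST7 and 2.64 in sgXIST9, while of 15 tested neighbours 3 to 5 rose and 4 to 6 fell. RAD54B, a recombination gene, fell with CCNE2 by 2.08 in sgXIST7 and 1.72 in sgXIST9, among 10 tested neighbours, and was also past the study's limits in sgCtl. MYEOV fell with CCND1 in the 3 lines, among 12 neighbours, and SAMD9 and SAMD9L were higher with CDK6 in normoxic sgXIST9, among 14. SAMD9 and SAMD9L were also higher past the study's limits in normoxic sgXIST7. There CDK6 differed from sgCtl by only 0.13 ± 0.67 (adjusted p = 0.925 in edgeR). CCNE1 had 5 tested neighbours, and in the hypoxia comparisons none passed the study's limits in the direction of CCNE1. For the 3 members with the widest range of group means, the genes most alike across the 18 libraries were DFFB, PPIF and PARP1 for CCND3 (Pearson r = 0.983, 0.976 and 0.975), B4GALT5, CEP76 and QTRT2 for CCNE1 (0.984, 0.980 and 0.975), and NFKB2, APBA3 and PSD4 for CCND2 (0.933, 0.925 and 0.914). These libraries share the contrast of hypoxia and normoxia, and the values are descriptions.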

How the data were processed

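RNA was extracted with Trizol and libraries were made with a stranded total RNA kit after removal of rRNA, and sequenced paired-end. The authors trimmed reads with Trimmomatic, checked them with FastQC, used hisat2 for alignment to hg38 and featureCounts for a count per gene, and the deposited values are raw counts per gene for 18 libraries. The strand setting of the counting and the tool versions are not given in the sources used here. Of 28279 lines, 2 broken ones without counts were left out. Total counts were 11794375 to 24906936 per library, and no pair of libraries held identical counts. RN7SL1 took 3.00% to 4.99% of counts in normoxia and 5.05% to 8.13% in hypoxia, and TMM factors were 1.02 to 1.12 and 0.859 to 1.04.

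Counts were scaled by TMM, filtered with filterByExpr (minimum count 10, minimum total 15) and fitted for 6 groups with edgeR 4.0.16 (robust quasi-likelihood, prior count 0.125, limma 3.58.1, R 4.3.3), with the common dispersion at 0.0321. Adjusted p is Benjamini-Hochberg over 14938 genes and a gene passed the test under 0.01. SE is the log2 fold change over the root of F. CPM used the TMM-scaled library size, and levels of different genes were compared per kb of exon. A library's detection limit was 3 counts. Groups were taken from the sample labels. The study calls the 3 replicates biological. DESeq2 1.42.0, RLE and upper-quartile scaling, other filters, a threshold of 0.05, fits of only the groups compared, a replicate block and leaving out libraries were the alternatives. The fit was tested on simulated data.

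Same-numbered replicates deviated together, every pair over 0.1, in sgXIST7 against sgCtl in normoxia (r = 0.148 to 0.379) and in sgXIST9 against sgCtl in hypoxia (r = 0.197 to 0.566). No other comparison had every pair over 0.1. The own number was still the best match for all 3 replicates in sgXIST9 against sgCtl in normoxia (r = 0.0262 to 0.0818). The same held for hypoxia against normoxia in sgCtl (0.0928 to 0.109) and sgXIST7 (0.0308 to 0.241). The 10 genes and the gene lists were chosen with earlier results of these data known. All 10 are named. Of the 2 pathway lists, genes past the study's limits in any comparison could be named, and within 1 Mb of a member past the test, neighbours past those limits in its direction. The genes most alike were sought for the 3 members with the widest range of group means, among genes of a mean CPM of at least 1. MTAP and the other genes near CDKN2A in sgXIST7 or in hypoxia and CDKN2B as a neighbour lie outside this rule. So do SAMD9 and SAMD9L in sgXIST7, CDKN2B-AS1, INTS8 and TSPAN31. They were chosen after their values were seen.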

Additional observations from a re-analysis of the deposited data

Results flagged for a closer look

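The hypoxia response of several genes differed between a KD line and sgCtl in the interaction term of the fit. Among the 10 genes this was CCNE2, by -1.39 in sgXIST7 and -1.32 in sgXIST9 on the log2 scale. Among the other regulators, CDKN2B differed by -2.39 and E2F1 by -1.40 in sgXIST7, and CDKN2C by 1.37 in sgXIST9. Of the E2F-responsive genes, MCM3 differed by -1.26 in sgXIST7, MYBL2 by -1.56 in sgXIST7 and -1.44 in sgXIST9, and TK1 by -0.87 and -1.07. The 2 contrasts share the sgCtl libraries.

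CDK4 had fold changes of opposite sign in the KD lines, neither past the test. All 3 hypoxic libraries lay above the normoxic ones in sgXIST7 (log2 fold change 0.46) and below them in sgXIST9 (-0.31). This difference between the KD lines was not tested.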

How the results depend on the processing

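Of 464 alternative values for the 33 member calls, 393 kept direction and call, 71 lost the call and none turned its direction. The number of members past the test moved by over 1.5 times as follows. In sgXIST9 against sgCtl in normoxia (2) it was 4 at a threshold of 0.05, 4 in a fit of only the groups compared and 1 with a filter at a mean CPM of 1. Between the KD lines in normoxia (0) it was 2 at 0.05, 2 in DESeq2, 2 in the fit of only the groups, 1 without a filter and 1 with the replicate block. For hypoxia in sgCtl (5) it was 3 with the filter at a mean CPM of 1. In hypoxia the fit of only the groups gave 3 for sgXIST7 against sgCtl (6), 0 for sgXIST9 (3) and 0 between the KD lines (2), where it was 5 at 0.05, 5 in DESeq2, 5 with the block, 4 without the hypoxic libraries numbered 3 and 1 without a filter. For the difference in response it was 4, 3, 0, 2 and 4 in sgXIST7 (1) at 0.05, in DESeq2, with only the groups, with the block and without the libraries numbered 3, and 2, 0, 0 and 3 in sgXIST9 (1) at 0.05, with upper-quartile scaling, with only the groups and without those libraries. The share of all genes past the test also moved, and nothing about the members is read from these counts alone. For sgXIST9 against sgCtl in normoxia (13.1%) it was 21.6% at 0.05, 32.8% with only the groups and 13.6% with the filter at a mean CPM of 1. Between the KD lines in normoxia (4.97%) it was 8.88% at 0.05, 6.80% in DESeq2, 8.74% with only the groups, 3.12% without a filter and 6.02% with the block. For hypoxia in sgCtl (37.6%) it was 40.01% with the filter. With only the groups it was 9.30% for sgXIST7 (27.6%) and 4.95% for sgXIST9 (17.9%) against sgCtl in hypoxia and 2.60% between the KD lines (8.43%), where it was 18% at 0.05, 12.5% in DESeq2, 11.7% with the block, 14.7% without the libraries numbered 3 and 5.29% without a filter. For the difference in response it was 9.39%, 7.72%, 0.586%, 3.997% and 16.2% in sgXIST7 (2.17%) and 5.27%, 1.45%, 0.686% and 9.92% in sgXIST9 (1.26%), in the order of settings above. Fits of only the groups use fewer samples to estimate the spread. With them the share of all genes rose in some comparisons and fell in others. The cause of these moves was not tested.

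Leaving out 1 library gave 5 to 5 for hypoxia in sgCtl, 5 to 8 in sgXIST7 and 5 to 6 in sgXIST9. For each difference in response it gave 0 to 3. Against sgCtl in hypoxia it gave 4 to 7 for sgXIST7 and 2 to 3 for sgXIST9, and in normoxia 0 to 0 and 0 to 1. Between the KD lines it gave 0 to 5 in hypoxia and 0 to 1 in normoxia. The share of all genes past the test was not computed for these fits, so nothing about the members is read from these ranges.

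By CPM without length, the share of CCND1 among D-type cyclins was 84.3%, 77.6% and 76.8% in normoxic sgCtl, sgXIST7 and sgXIST9 and 82.5% in hypoxic sgXIST9, that of CCND3 15.6%, 22.4%, 23.2% and 17.2%, and that of CCND2 0.0486% in normoxic sgCtl. Leaving out 1 library moved the CCND1 share within 79.5% to 80.7%, 70.6% to 73.8% and 70.7% to 71.5% in normoxia and 76.4% to 81.5%, 82.7% to 86.4% and 75.5% to 79.6% in hypoxia, for sgCtl, sgXIST7 and sgXIST9 in turn. For CCND3 it was 19.2% to 20.4%, 26.2% to 29.4% and 28.5% to 29.3%, and 17.3% to 23.0%, 12.8% to 17.03% and 20.1% to 24.4%. For CCND2 it was 0.0280% to 0.0323%, 0.00481% to 0.0125% and 0.00396% to 0.00990%, and 0.606% to 1.31%, 0.307% to 0.731% and 0.0956% to 0.297%.

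The replicate block changed no member call where the numbers paired the samples, with 0 genes in sgXIST7 against sgCtl in normoxia and 3 in sgXIST9 against sgCtl in hypoxia. CCND2 and CDK6 had at most 50 and 45 counts per library.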
